A study of Scophthalmus maximus with 8 samples.

Results

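Very abundant genes that change with stage were selected on their normalized counts in 8 RNA-seq libraries of turbot (Scophthalmus maximus), a flatfish. A normalized count is a gene's read count divided by the size factor of its library, the median ratio of its counts to the geometric mean over libraries. A gene was included when its largest stage mean was at least 20000 and at least 3 times its smallest stage mean. This gave 121 of the 21263 genes in the tables, or 0.569%. Another 105 genes reached 20000 but varied by less than 3 times, and they are called the steady very abundant genes. Levels and shares by stage are the values that chose the 121 genes, so they are given as a description and not as tests.

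The libraries came from fish at 4 stages, for which the labels name no treatment, with 2 independent biological replicates each. The phylotypic stage was taken as whole animals at 3 dpf (days post fertilization). The pre-metamorphic, climax and post-metamorphic stages were taken at 15, 23 and 37 dph (days post hatching), after the part of the body behind the cloaca had been cut away. The step from 3 dpf to 15 dph is therefore also a step from whole animals to partial bodies, and the design does not let stage and sampled part be told apart. The tables held 19077018 to 24633023 counts on genes per library, with a median of 21101789. In whole bodies, fewer cells of a type and less RNA per cell cannot be told apart. The tables give Ensembl identifiers without gene names and the gene table at hand pairs 0 of its 26628 genes with such an identifier. Tissue markers were therefore not checked, roles are not given, and genes other than 4 are described by rank and values.

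Thyroid hormone drives the metamorphosis of flatfish, during which 1 eye moves across the head and the young fish settles on its side. In animal tissues in general a small number of genes can supply a large part of the messenger RNA. In embryos these are often genes of the protein synthesis machinery, and in differentiated bodies often genes for muscle fibres, digestive enzymes, skin structure or oxygen transport. Which of these groups the 121 genes belong to was not analysed here. A library reads a fixed amount of RNA, so a larger share for one group of genes leaves a smaller share for all others. Counts also grow with transcript length, so a highly counted gene need not have the most transcripts.

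The 121 genes took a larger share of the gene counts at each later stage. They held 12.9% and 10.2% of the counts in the 3 dpf replicates, 20.1% and 19.6% at 15 dph, 28.9% and 29.5% at 23 dph, and 39.7% and 34.3% at 37 dph. The replicates of neighbouring stages did not overlap. The stage means were 11.6% ± 1.92 (SD, n = 2) at 3 dpf, then 19.9% ± 0.394 at 15 dph, 29.2% ± 0.394 at 23 dph and finally 37.0% ± 3.81 at 37 dph, which is 3.20 times as much at 37 dph as at 3 dpf. The 95% Wilson interval of each library's share reached at most 0.0219 percentage points to either side, so counting error was small beside the spread between fish. Intervals cover counting error only.

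**Figure D1:**
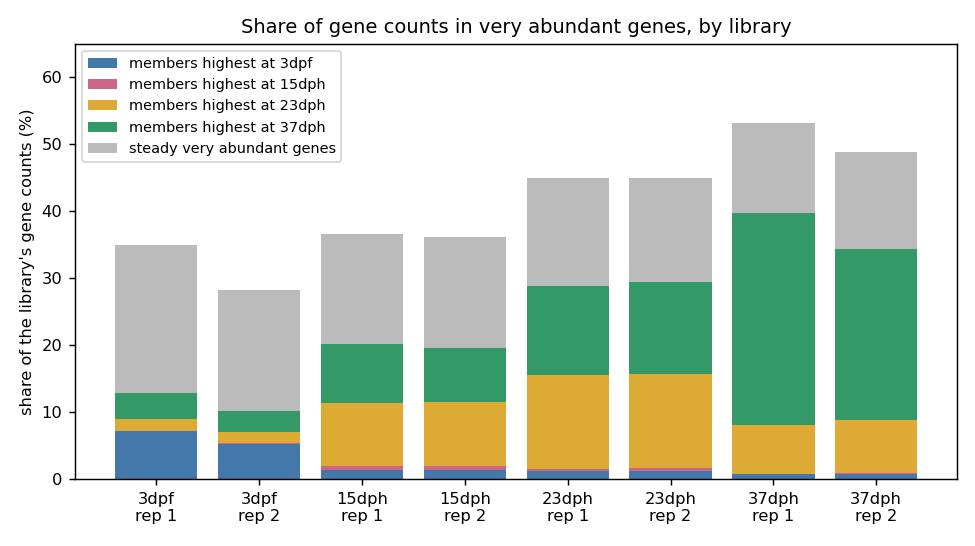
Share of each library's gene counts (vertical axis, %) in the 121 genes, coloured by the stage of their largest mean, and in the 105 steady very abundant genes (grey), for the 8 libraries. The coloured part grows from 12.9% and 10.2% at 3 dpf to 39.7% and 34.3% at 37 dph, mostly through genes highest at 23 dph and 37 dph.

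The steady very abundant genes went the other way. Their share was 20.04% ± 2.85 (SD, n = 2) at 3 dpf, then 16.5% ± 0.0202 at 15 dph, 15.7% ± 0.378 at 23 dph and finally 14.0% ± 0.772 at 37 dph. All remaining genes held 68.4% ± 4.76 of the counts at 3 dpf and 49.0% ± 3.04 at 37 dph. In normalized counts, the 121 genes summed to 2592250 and 1719954 in the 3 dpf replicates and to 11410174 and 8205068 in those of 37 dph. The other 21142 genes together stayed between 14154934 and 17473034 in every library. On this scale the growth of the libraries' normalized totals from 15 to 37 dph lay mainly in the 121 genes. Size factors hold the typical gene level, and the rule picked abundant genes that change, so this is partly fixed by the scale and the rule.

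From 15 dph on, the counts also became concentrated in fewer genes. At 3 dpf the 479 and 795 most counted genes were needed to reach 50% of the counts, at 15 dph 548 and 560, at 23 dph 299 and 298, and at 37 dph only 165 and 228. Among genes outside the 121, the number needed for 50% of their own counts was 700 and 1024 at 3 dpf, 1015 and 1010 at 15 dph, 855 and 864 at 23 dph, and 748 and 858 at 37 dph. Its mean also went down from 15 to 37 dph, but by less than over all genes. Of the 20 most counted genes of a library, 10 and 11 were among the 121 at 3 dpf, 15 and 15 at 15 dph, 17 and 17 at 23 dph, and 20 and 19 at 37 dph. The rule picked abundant genes that change. These numbers and the smaller decrease outside the 121 are therefore partly fixed by the rule, and nothing is read from them. Within the 121 genes the counts were uneven, since between 10 and 17 of them supplied 50% of their counts in any library.

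Reads placed at more than 1 position, which the tables do not assign to a gene, moved in the same order. They made up 2.705% and 2.52% of the aligned entries at 3 dpf, 4.92% and 4.48% at 15 dph, 5.30% and 5.43% at 23 dph, and 6.999% and 6.61% at 37 dph. Members with near-identical copies could lose reads in this way, and the part of this in the shares was not tested.

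The 121 genes differed widely in how far they moved. The ratio of the largest to the smallest stage mean ran from 3.07 to 8729 with a median of 37.9. It was under 10 for 41 genes, from 10 to 100 for 29, from 100 to 1000 for 18 and at least 1000 for 33. The largest stage mean ran from 20213 to 738993 normalized counts with a median of 49285, and 31 genes reached 100000. The smallest mean was at 3 dpf for 96 genes, at 37 dph for 14 and at 15 dph for 11, and no gene was lowest at 23 dph. Just inside the limits stood a gene with a largest mean of 20214 and one with a ratio of 3.07. Just outside stood one with 19920 and one with a ratio of 2.94.

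**Figure D2:**
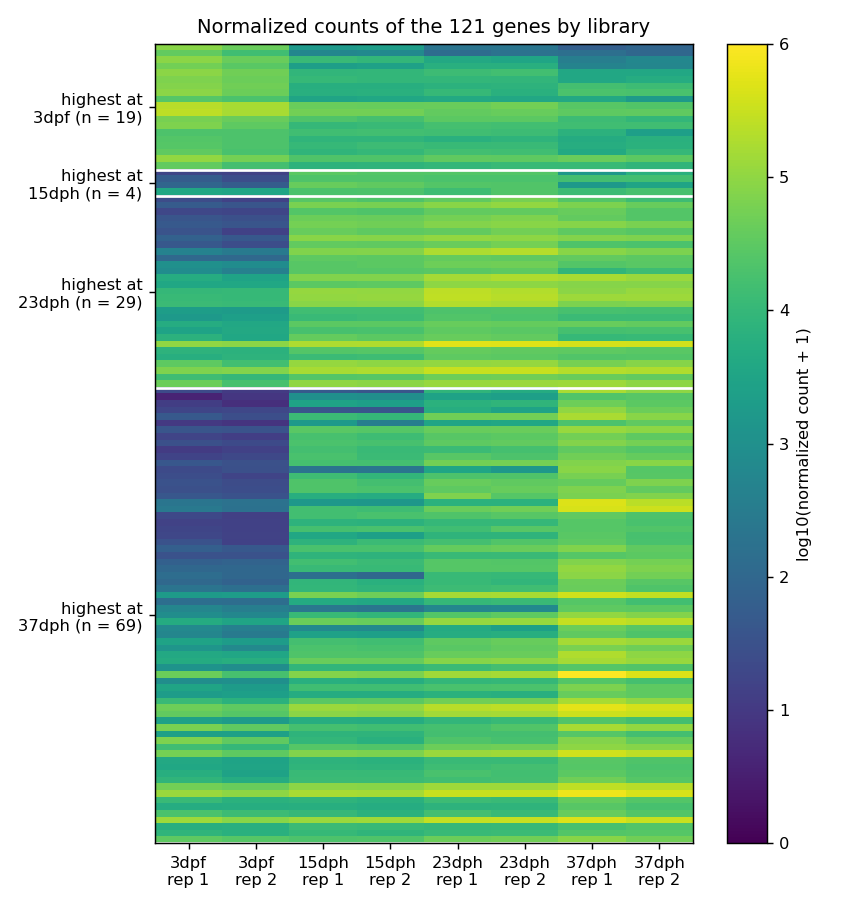
Normalized counts of the 121 genes, as log10(normalized count + 1) by colour, in the 8 libraries (columns), with 1 row for each gene, grouped by the stage of the largest mean and ordered within a group by the ratio of largest to smallest stage mean. Of the 102 genes highest after 3 dpf, 96 have their smallest stage mean at 3 dpf, among them the 33 with a ratio of at least 1000.

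By the stage of the largest mean, 19 genes were highest at 3 dpf, then 4 at 15 dph, 29 at 23 dph and finally 69 at 37 dph. These numbers depended on single fish and on the scaling. Without replicate 2 of 3 dpf 30 genes were highest at 3 dpf. With total gene counts in place of size factors the rule chose 116 genes. The 37 dph group then shrank to 51 genes but was still the largest, and the 3 dpf group grew to 27. Another 24 genes had their top mean at 23 dph, and 14 had it at 15 dph. The grouping used means, and in some genes the replicates overlapped those of other stages. Both replicates of the top stage lay above every other library in all 19, in 2 of the 4, in 20 of the 29 and in 61 of the 69. The groups were formed on these same values and the share over all genes was not counted, so nothing is read from these numbers.

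The 19 genes highest at 3 dpf held 6.31% ± 1.36 (SD, n = 2) of the counts at 3 dpf, then 1.42% ± 0.0144 at 15 dph, 1.26% ± 0.0261 at 23 dph and finally 0.773% ± 0.0375 at 37 dph. Most of their loss came in the first step, where 18 of the 19 were at least 2 times lower. Their median ratio of largest to smallest mean was 7.62, with 11 genes under 10. ENSSMAG00000007743, the most counted of them, stood at 246592 and 163790 normalized counts in the 3 dpf replicates, 54071 and 53780 at 15 dph, 36596 and 41416 at 23 dph, and 32864 and 34516 at 37 dph. Every later library lay below both 3 dpf libraries, and the gene was still among the very abundant ones at 37 dph. Its fitted log2 fold change from 3 dpf to 15 dph was -1.90 (standard error 0.26 in edgeR), and over the later steps it was -0.48 (standard error 0.25) and -0.23 (standard error 0.25). ENSSMAG00000018236 stood at 228097 and 166374 normalized counts at 3 dpf, 42370 and 41332 at 15 dph, 43580 and 52562 at 23 dph, and 28373 and 23394 at 37 dph. Its log2 fold change from 3 dpf to 15 dph was -2.21 (standard error 0.25). From 15 to 23 dph it was 0.19 (standard error 0.24), and on total counts it was -0.12 (standard error 0.17), so this step had no fixed sign. From 23 to 37 dph it was -0.91 (standard error 0.25), short of the minimum of 1. It passed this minimum on total counts with -1.15, and without replicate 1 of 37 dph or of 23 dph with -1.04 in each.

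The widest ratio among the 19 was that of the seventh in rank. This gene stood at 87039 and 42612 normalized counts at 3 dpf, 1645 and 2138 at 15 dph, 207 and 217 at 23 dph, and 64.4 and 88.3 at 37 dph, a ratio of 849 between the first and the last stage. It was lower at each later stage with no overlap between replicates of neighbouring stages. Means were lower at every later stage in 8 of the 19 genes. In 5 others the lowest mean was at 15 dph, and their mean at 37 dph was 1.27 to 3.08 times that at 15 dph.

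**Figure D3:**
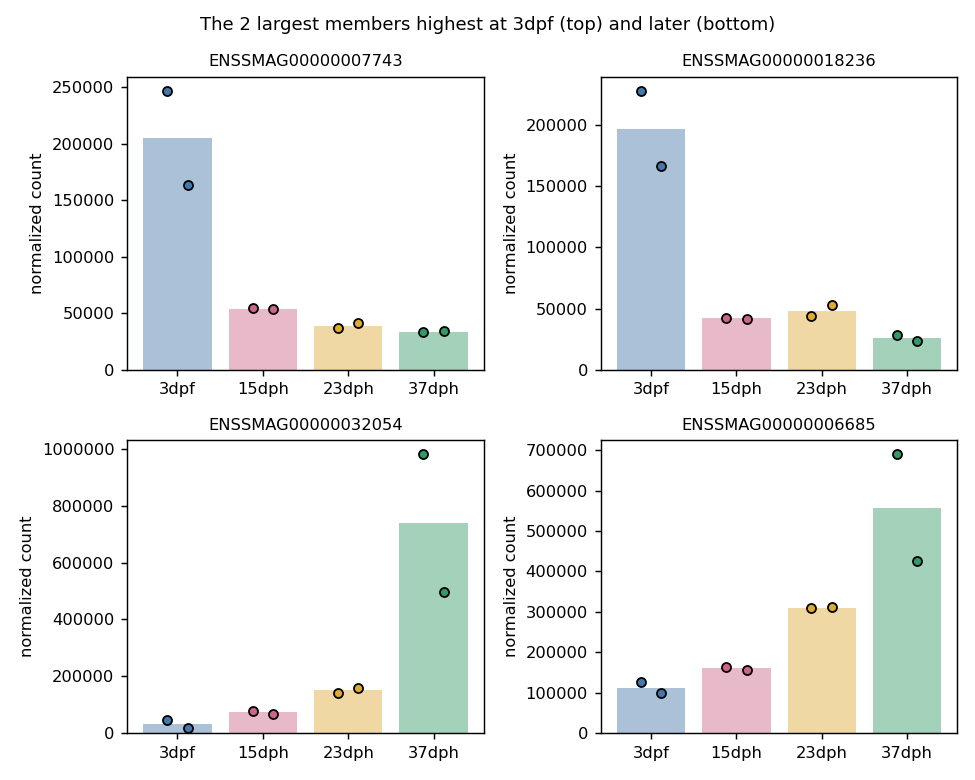
Normalized counts (vertical axis from 0) at the 4 stages for the 2 most counted genes highest at 3 dpf (upper panels) and the 2 most counted genes highest later (lower panels). Points are the 2 replicates and bars their mean. In the upper panels both 3 dpf points lie above all later points, and in the lower panels both 37 dph points lie above all earlier points, with the 37 dph replicates of ENSSMAG00000032054 far apart at 982274 and 495711.

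The 69 genes highest at 37 dph made up the largest group. They held 3.55% ± 0.551 (SD, n = 2) of the counts at 3 dpf, then 8.40% ± 0.432 at 15 dph, 13.5% ± 0.362 at 23 dph and finally 28.5% ± 4.30 at 37 dph. In normalized counts, means were higher at every later stage in 62 of the 69, and this was not counted on total counts. From 23 to 37 dph their means were 1.12 to 53.5 times higher, with a median of 2.31. ENSSMAG00000032054, the most counted of all, stood at 44540 and 18287 normalized counts at 3 dpf, 78640 and 65781 at 15 dph, 141798 and 157828 at 23 dph, and 982274 and 495711 at 37 dph. This gene alone took 3.42% and 2.07% of all counts in the 37 dph replicates. Its fitted log2 fold change was 1.23 (standard error 0.44) from 3 dpf to 15 dph, 1.04 (standard error 0.43) from 15 to 23 dph and 2.29 (standard error 0.45) from 23 to 37 dph. The step from 15 to 23 dph reached the minimum of 1 but was not called, with an adjusted p-value of 0.24 in edgeR. The step from 3 dpf to 15 dph was 0.72 without replicate 2 of 3 dpf. It was 1.096 and 1.35 when replicate 1 or replicate 2 of 15 dph was left out, and in none of these 3 fits did it pass the criterion for a call. ENSSMAG00000006685 was already high in the embryo, with 125473 and 97928 normalized counts at 3 dpf, 163377 and 156597 at 15 dph, 310250 and 310758 at 23 dph, and 689997 and 424713 at 37 dph. Each stage lay above the one before without overlap. Its log2 fold changes over the steps were 0.55 (standard error 0.30), 0.95 (standard error 0.30) and 0.83 (standard error 0.30), none of which reached the minimum of 1. The last step was 1.11 and passed without replicate 2 of 37 dph, and was 0.45 without replicate 1.

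Of the 69, 5 were at least 10 times higher at 37 dph than at 23 dph. The largest step was that of the sixth in rank, which stood at 215 and 179 normalized counts at 3 dpf, 1604 and 1481 at 15 dph, 6661 and 6696 at 23 dph, and 481895 and 233269 at 37 dph. It went from 0.03% of the counts in both 23 dph libraries to 1.68% and 0.98% at 37 dph. The gene with the widest ratio of all, 8729, was at 21.0 and 10.1 normalized counts at 3 dpf and 50.3 and 36.3 at 15 dph, then at 8317 and 5033 at 23 dph and 173293 and 98027 at 37 dph. It was low at both early stages beside the later ones. Its rise from 3 dpf to 15 dph was still called, with a log2 fold change of 1.54 (standard error 0.51 in edgeR). The read counts behind this call were only 21 and 13 at 3 dpf and 59 and 44 at 15 dph. Whether such low counts come from the fish was not tested. In 6 of the 69 the mean had its lowest value at 15 dph, and at 3 dpf it was 1.30 to 6.49 times that at 15 dph. The most counted of these 6 stood at 61334 and 34096 normalized counts at 3 dpf, 17285 and 14747 at 15 dph, 16674 and 24081 at 23 dph, and 163181 and 108212 at 37 dph. It was thus lower in both larval stages than in embryos and juveniles.

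The 29 genes highest at 23 dph held 1.68% ± 0.0041 (SD, n = 2) of the counts at 3 dpf, then 9.44% ± 0.0675 at 15 dph, 14.0% ± 0.0086 at 23 dph and finally 7.59% ± 0.401 at 37 dph. In 21 of the 29 the step from 15 to 23 dph was under 2 times, and in 21 so was the step from 23 to 37 dph. The mean at 23 dph was a median of 1.58 times that at 15 dph, and the mean at 37 dph a median of 0.658 times that at 23 dph, with a range from 0.279 to 0.959. The most counted of them stood at 100458 and 89550 normalized counts at 3 dpf, 178449 and 196569 at 15 dph, 529939 and 516189 at 23 dph, and 420631 and 383418 at 37 dph. It was the most counted of the 121 genes in both 23 dph libraries, with 2.41% and 2.34% of the counts.

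The 4 genes highest at 15 dph held 0.607% ± 0.0434 (SD, n = 2) of the counts there and 0.145% ± 0.047 at 37 dph. Their first in rank stood at 91.8 and 53.8 normalized counts at 3 dpf, 39251 and 34191 at 15 dph, 25388 and 23059 at 23 dph, and 1637 and 3192 at 37 dph. It was high in both larval stages and low before and after them. The second had the same order of levels, with 17.0 and 14.0 at 3 dpf, 31517 and 24210 at 15 dph, 25375 and 24175 at 23 dph, and 1582 and 6501 at 37 dph. Its 37 dph replicates were far apart, but both lay below every larval library. The other 2 of the 4 genes did not share this fall and stayed within 2 times at both later steps. Their means were 22477 and 20350 at 15 dph and 15538 and 15353 at 37 dph.

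Step by step, each gene's stage mean was set beside that of the previous stage. From 3 dpf to 15 dph 82 of the 121 were at least 2 times higher and 21 at least 2 times lower. From 15 to 23 dph 39 were at least 2 times higher and 3 at least 2 times lower, and from 23 to 37 dph the numbers were 46 and 17. The rule asked for a ratio of at least 3 between stage means, so such moves are partly built in. The share of all genes moving this far was not counted, so nothing is read from these numbers. The most frequent course, in 30 genes, was at least 2 times higher by 15 dph and within 2 times at both later steps. In 17 genes every step was at least 2 times higher. The size factors add 0.32 to a log2 change from 15 to 23 dph and 0.25 from 23 to 37 dph beside total counts, and -0.06 from 3 dpf to 15 dph. With total counts, 23 genes were at least 2 times higher and 3 lower from 15 to 23 dph, and 30 higher and 25 lower from 23 to 37 dph. The rule applied to the 3 later stages alone chose 55 of the 121 genes, and by construction no others.

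Calls were made with edgeR's quasi-likelihood test on 18987 genes, and a gene was called where the p-value, adjusted by Benjamini-Hochberg, was under 0.05 and the log2 fold change was 1 or more in either direction. All 121 genes were tested, and since the rule used the same stages nothing is read from their counts. From 3 dpf to 15 dph 84 of the 121 rose, beside 24.4% of all genes tested, and 19 fell, beside 14.3%. From 15 to 23 dph 29 rose, beside 1.48%, and 2 fell, beside 0.200%. From 23 to 37 dph 45 rose, beside 7.67%, and 18 fell, beside 4.36%. In either direction 111 were called between 3 dpf and 23 dph (39.9% of all genes), 118 between 3 dpf and 37 dph (48.5%) and 81 between 15 and 37 dph (21.8%). The 31 calls from 15 to 23 dph fell to 6 and 4 without replicate 1 or 2 of 15 dph, and to 7 and 10 without replicate 1 or 2 of 23 dph. The share of all genes called without these libraries was not counted. ENSSMAG00000007743 and ENSSMAG00000018236 fell from 3 dpf to 15 dph. ENSSMAG00000032054 rose from 23 to 37 dph and from 3 dpf to 15 dph, although the call from 3 dpf to 15 dph was lost in the 3 fits named above. ENSSMAG00000006685 was called at no single step but rose from 15 to 37 dph, with a log2 fold change of 1.77 (standard error 0.30).

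The rule used the mean of the 2 fish of a stage, so a gene high in 1 fish could enter through that fish, and the difference between the fish is given as a description. Its median size over the 121 genes, as a log2 ratio of normalized counts with 0.5 added, was 0.46 at 3 dpf, then 0.14 at 15 dph, 0.16 at 23 dph and finally 0.45 at 37 dph. Over 14225 genes with a mean of at least 100 it was 0.32, 0.11, 0.13 and 0.23 in the same order. Over the steady very abundant genes it was 0.57, 0.05, 0.08 and 0.17. The fish of 3 dpf and 37 dph thus lay further apart than those of 15 and 23 dph in all of these sets. At 3 dpf the order of the sets depended on the scaling, since on total counts the median size was 0.34 over the 121 genes, 0.31 over the steady ones and 0.36 over the 14225. At 37 dph the steady genes differed less than the 121 genes under both scalings. The same limit of 3 times split these 2 sets, so a gene high in 1 fish could leave the steady set. This difference between the sets is therefore partly fixed by the rule.

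At each stage more of the differences ran one way than the other. At 15 dph replicate 1 was the higher one in 79 of the 121 genes, and at 23 dph in only 45. Beside this it was higher in 52.2% and 50.5% of the 14225 genes at these stages. At 3 dpf replicate 1 was the higher one in 100 of the 121 genes and in all 19 that were highest there, with a median log2 ratio of 0.79 in the 19. At 37 dph it was the higher one in 91 of the 121 and in 61 of the 69 highest there, with a median log2 ratio of 0.55 in the 69. Being highest at a stage rests partly on its higher replicate, so these group counts are partly set by how the groups were formed. In normalized counts the direction at 3 dpf and 37 dph was not particular to the 121 genes. Replicate 1 was also higher in 102 of the 105 steady very abundant genes at 3 dpf and in 74 at 37 dph, beside 52.2% and 53.9% of the 14225 genes. At 3 dpf and 37 dph the replicate with the larger share of counts in the 121 genes was replicate 1. Scaled by total counts, replicate 1 was higher in 17 of the 19 at 3 dpf and in 54 of the 69 at 37 dph, with medians of 0.54 and 0.28. On total counts it was higher in 85 and 71 of the 121 genes at 3 dpf and 37 dph. Among the 105 steady genes it was higher in 90 at 3 dpf but only 26 at 37 dph, beside 32.0% and 24.7% of the 14225 genes. The direction thus depended on the scaling in both comparison sets at 37 dph, and at 3 dpf in the 14225 genes. Size factors hold the typical gene level, so in normalized counts the 14225 genes lie near an even split partly by construction. At 37 dph the largest difference ran the other way, in a gene at 1582 normalized counts in replicate 1 and 6501 in replicate 2, the second of the 4 genes highest at 15 dph.

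**Figure D4:**
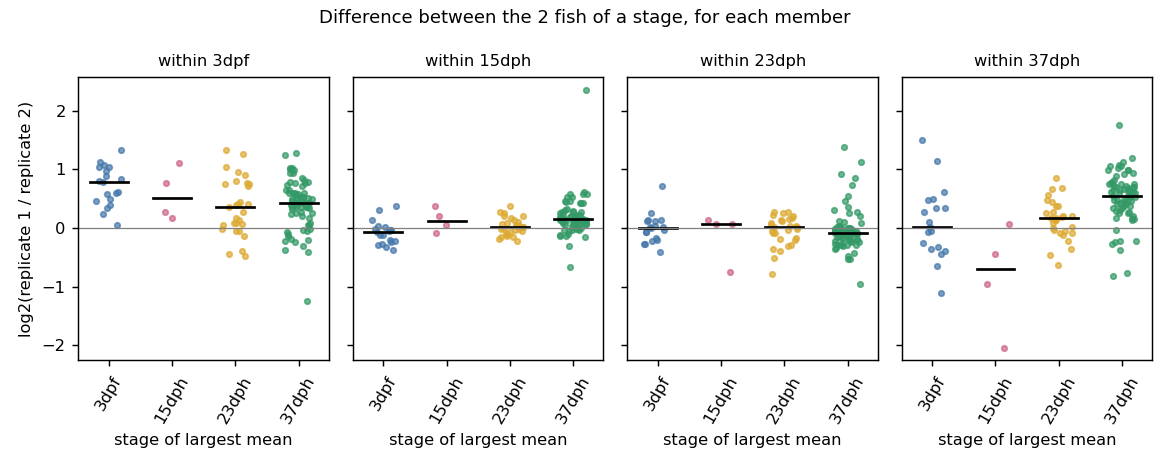
Log2 ratio of replicate 1 to replicate 2 (vertical axis, normalized counts with 0.5 added) within each stage (panels), with 1 point for each of the 121 genes, placed by the stage of its largest mean (horizontal axis). Black lines are medians and the grey line marks equal replicates. Points spread widely and mostly above 0 within 3 dpf and 37 dph, and most lie closer to 0 within 15 dph and 23 dph, where the median sizes are 0.14 and 0.16 and the largest 2.35 and 1.38.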

How the data were processed

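Total RNA of single fish was made into stranded poly(A)-selected libraries. Adapters were trimmed by the authors with Trimmomatic. They then aligned reads with STAR to the assembly ASM1334776v1, counted them by gene with HTSeq-count and deposited 1 table of raw counts per library. The strand setting and annotation release are not given in the sources used here. The 5 summary entries of each table, which name no gene, were left out. They held 15.3% to 18.9% of the aligned entries as without feature, 1.63% to 2.57% as ambiguous and 2.52% to 6.999% as not unique. The tables also list 48.7% to 49.3% of all entries as not aligned, which does not match the far higher mapping rates given for these libraries and is not read as a share of unmapped reads.

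Size factors, stage means and shares were computed in Python 3.11.15. Tests used edgeR 4.0.16 in R 4.3.3 with filterByExpr, TMM and 1 fit over all 8 libraries with a mean for each of 4 stages, which left 4 residual degrees of freedom. Both steps were run on simulated counts with planted changes. These counts were simpler than the data, so the runs check the code only. The standard error is the size of the log2 fold change over the square root of the F statistic. Alternatives covered scaling, limits of the rule, the denominator of the share, the filter, the minimum fold, the 2 stages alone, the test (DESeq2 1.42.0), the replicate block and each library left out. Named were the 2 genes highest at 3 dpf and the 2 highest later with the largest stage mean. The genes and all rules were chosen with earlier results of these data known. The planned gene lists were not counted, since 0 members matched a name.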

Additional observations from a re-analysis of the deposited data

How the results depend on the processing

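Of 415 values recomputed under alternatives, 361 kept their direction, their side of the threshold or a set limit (1.5 times for counts of genes, 1 SD between replicates for shares), and 54 did not. The order of the shares (3 dpf, 15, 23, 37 dph) did not change under any of them, and no cause was tested beyond what a limit gives by construction. With a minimum level of 10000 there were 222 genes, of which 40, 7, 48 and 127 were highest at 3 dpf, 15, 23 and 37 dph, with shares of 13.8%, 23.1%, 32.9% and 41.0%. With 40000 there were 70 (12, 0, 19 and 39), with shares of 16.4%, 25.5% and 32.7% at 15, 23 and 37 dph. A minimum ratio of 2 gave shares of 17.0%, 24.6%, 33.9% and 40.8% and 29 genes highest at 3 dpf, and a ratio of 4 gave 18.0% and 26.7% at 15 and 23 dph. Of all aligned entries the shares were 8.84%, 15.0%, 21.95% and 28.1%. Total counts gave 14 genes highest at 15 dph and a share of 27.8% at 23 dph. The 37 dph group went from 69 to 51 genes under them, and the 3 dpf group from 19 to 27. They also gave 23 and 30 genes at least 2 times higher from 15 to 23 and 23 to 37 dph. The later stages alone, an alternative added after the data were seen like those for steps, gave 55 genes.

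With each library left out there were 119 to 137 genes, of which 14 to 30, 3 to 5, 25 to 37 and 56 to 89 were highest at 3 dpf, 15, 23 and 37 dph. Shares were then 9.997% to 14.7%, 19.2% to 20.9%, 27.8% to 30.3% and 32.5% to 41.2%, and calls from 15 to 23 dph 4 to 37, where a lone library is assumed to vary like the others. Calls over all genes were not counted with a library left out. The log2 fold change of ENSSMAG00000018236 from 15 to 23 dph was 0.19 and reversed to -0.12 on total counts.

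Replicate numbers are shared by the stages, and the labels name no common animal or batch for them. Whether same-numbered libraries shared a batch is therefore not known. Deviations of same-numbered libraries correlated from -0.17 to 0.27 over 6 pairs of stages, across 14225 genes. With the replicate block, 105, 36 and 62 of the 121 genes were called at the consecutive steps, beside 103, 31 and 63 without it. The share of all genes called with the block was not counted, so nothing is read from these numbers. No call of the 4 named genes at the consecutive steps changed, and their calls between other stages were not compared.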

Other observations

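None of the 121 genes had a count of 0 in any library, and the lowest count was 3. Among the 102 genes highest after 3 dpf, 27 had a mean over the 6 later libraries at least 1000 times their mean at 3 dpf. In these 27 the ratio lay between 1014 and 3054, with a median of 1565, while the mean of the later libraries ran from 9933 to 86216 normalized counts and the counts in the 3 dpf libraries from 3 to 72. The ratio was from 500 to 1000 in 8 more genes and from 100 to 500 in another 8. Of all 536 genes with a mean of at least 5000 over the later libraries, 0 had a count of 0 in either 3 dpf library, and the highest ratio was also 3054. With a minimum of 1000 in place of 5000 there were 3148 genes, of which 13 had a count of 0 in one of the 3 dpf libraries, 0 had it in both, and the highest ratio was 5081. In the 27 genes replicate 1 of 3 dpf was the higher one in 23, with a median log2 ratio of 0.40 between the replicates, close to the 0.43 over all 121. Whether such low counts come from the embryos was not tested.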
